A study of Drosophila melanogaster with 14 samples.

Results

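The genes described here are 93 cuticle protein genes of Drosophila melanogaster, 70 of the Cpr family and 23 of the Twdl (Tweedle) family, among 13945 protein-coding genes on the 6 large chromosome arms. They were chosen by symbol, Cpr or Twdl followed by a digit or a capital letter, with no measured value involved. Open chromatin was measured by ATAC-seq, which marks accessible DNA by the cuts of a transposase, and was taken here from the authors' lists of nucleosome-free peaks, made of short fragments from DNA between nucleosomes. The peaks of all 14 libraries merged into 33226 regions, and 109 of these overlapped a member's body or the 1 kb on either side of it. In wing discs 30 of the 93 genes had no region in any library (32.3%, against 23.4% of all genes), 30 more had regions that missed their own transcription start, 33 had a region within 200 bp of their own start and 12 had such a region in all 14 libraries.

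The discs, the larval sacs from which the adult wing and notum form, were dissected from larvae of the third instar. They fell into 7 groups of 2 libraries each: discs in which apoptosis had been induced (regenerating) and discs kept alike without cell death (control), both at 0, 15 and 25 h after induction, and L3, undamaged larval discs outside that series. The labels name 10 discs for each genotype and condition, but no driver, death gene or strain, and number the replicates without saying whether they came from separate animals. Whole discs were used, so fewer nuclei of a kind with a site open and a smaller opening in every nucleus cannot be told apart.

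Cuticle is the coat of chitin and protein that the epidermis secretes anew for each stage. Cpr proteins carry the Rebers and Riddiford consensus, a sequence that binds chitin, and Tweedle proteins form a second family of structural cuticle proteins known from insects. Many of these genes lie in tandem clusters and are transcribed in short pulses late in a moult under the control of ecdysone, the moulting hormone, and the wing disc lays down its own pupal cuticle only after pupariation begins.

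The start sites themselves carried a shared mark in their sequence. The letters TATAAA, the core of the TATA box that positions the start of transcription, lay on the gene's strand from 40 to 20 bases before the annotated start in 44 of the 93 members (47.3%), against 985 of all 13945 protein-coding genes (7.06%) and 5 of 179 odorant, gustatory and ionotropic receptor genes (2.79%), a set of sensory genes taken for comparison. This share was alike in members with no region (14 of 30, 46.7%) and in members with a region at their own start (15 of 33, 45.5%). In the wider window from position -250 to 50 around the start, on either strand, 72.0% of members and 45.8% of all genes held TATAAA. The 60 bases before the start are shown for 4 members with a region within 200 bp of it in all 14 libraries (TwdlE, Cpr72Eb, TwdlT, Cpr100A). For Cpr72Eb that region ended 200 bp upstream of the start, outside the printed bases. Also shown are 4 members with no region in any library (Cpr30F, Cpr72Ec, TwdlD, TwdlX) and Cpr92F. The start region of Cpr92F had the highest median rank of the member regions, and its printed sequence has no match. All printed sequences are from the NCBI RefSeq Release 6 assembly (dm6), 5′ to 3′ on the gene's strand, and capitals mark TATAAA.
TwdlE, chr2L:7860840-7860899, minus strand: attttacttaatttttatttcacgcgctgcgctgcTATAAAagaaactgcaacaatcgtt
Cpr72Eb, chr3L:16364839-16364898, plus strand: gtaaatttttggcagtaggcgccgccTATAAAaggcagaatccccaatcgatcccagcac
TwdlT, chr3R:27049160-27049219, plus strand: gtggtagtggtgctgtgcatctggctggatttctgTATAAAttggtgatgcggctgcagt
Cpr100A, chr3R:30867461-30867520, plus strand: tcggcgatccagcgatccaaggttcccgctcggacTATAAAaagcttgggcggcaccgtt
Cpr92F, chr3R:20669511-20669570, plus strand: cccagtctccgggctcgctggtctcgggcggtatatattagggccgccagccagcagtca
Cpr30F, chr2L:9933164-9933223, minus strand: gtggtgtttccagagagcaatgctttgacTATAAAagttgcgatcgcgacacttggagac
Cpr72Ec, chr3L:16367341-16367400, minus strand: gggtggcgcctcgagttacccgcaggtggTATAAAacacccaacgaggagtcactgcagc
TwdlD, chr3R:26639965-26640024, plus strand: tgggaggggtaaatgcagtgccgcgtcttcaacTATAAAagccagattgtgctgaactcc
TwdlX, chrX:16731031-16731090, plus strand: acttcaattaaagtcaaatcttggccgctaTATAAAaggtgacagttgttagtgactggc

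Some regions near members held another motif. AACCGGTT, a palindrome bound by Grainy head, an epidermal transcription factor that acts on cuticle and wound repair genes, lay within 60 bases of the strongest summit in 6 of the 109 member regions (5.50%) and in 5 of the 36 that were in all 14 libraries (13.9%). It did so in 403 of all 33226 regions (1.21%) and in 245 of the 13545 regions in all libraries (1.81%). In the window from -250 to 50 around the start it was in 0 of the 93 members and in 0.753% of all genes. A match is only a run of letters, and no binding was measured. Shown are both regions beside Cpr65Aw and the region 291 bp upstream of Cpr73D, with AACCGGTT in capitals, on the plus strand. The upstream region of Cpr65Aw covers the start of Lcp65Ad, a larval cuticle gene, and 2 matching regions not shown, beside Cpr23B and Cpr65Ec, likewise each cover the start of another gene.
Cpr65Aw, downstream, chr3L:6141614-6141734: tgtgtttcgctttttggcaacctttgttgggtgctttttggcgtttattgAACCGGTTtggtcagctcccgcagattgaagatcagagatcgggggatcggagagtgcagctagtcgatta
Cpr65Aw, upstream, chr3L:6143598-6143718: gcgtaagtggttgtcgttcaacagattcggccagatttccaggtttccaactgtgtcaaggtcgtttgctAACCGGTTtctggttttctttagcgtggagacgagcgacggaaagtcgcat
Cpr73D, upstream, chr3L:16958019-16958139: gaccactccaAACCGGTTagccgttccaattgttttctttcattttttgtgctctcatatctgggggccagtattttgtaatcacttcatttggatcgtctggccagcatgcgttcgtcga

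The libraries listed 19174 to 24139 nucleosome-free peaks. Peak lists record no read depth, but the authors' fold and p of each peak can be solved for whole fragments, and the lowest local background in a list, a measure of depth, ran from 1.62 fragments in 0 h control replicate 1 to 3.67 in 25 h regenerating replicate 2. All 7 listed wing disc genes (nub, vg, ap, sd, rn, salm and wg) had a region at their own start in all 14 libraries, against 37.5% of all genes. All 6 genes listed for the disc's myoblasts and all 6 listed for its trachea had a region at their start in at least 1 library. So did 1 of 6 hemocyte genes, 0 of 4 fat body genes and 56.7% of all genes. In all 14 libraries 3 of the myoblast and 5 of the tracheal genes had one. Gene length was not matched, so these counts do not identify the tissue. Tracheal cells also make cuticle, and their part in the member regions was not tested.

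The 30 genes with no region made up 32.3% of the members (exact binomial 95% interval 22.9 to 42.7%). The share was 24.3% in Cpr genes (17 of 70) and 56.5% in Twdl genes (13 of 23). Among all protein-coding genes it was 23.4% (3270 of 13945), and among receptor genes 60.3% (108 of 179). The members are short, with a median body of 1088 bp against 2166 bp over all genes, so the shares were also set out by length. Among members of up to 1000 bp 15 of 40 had no region (37.5%, against 46.5% of all genes of that length), among those above that and up to 2000 bp 13 of 34 (38.2%, against 29.7%), and among longer ones 2 of 19 (10.5%, against 11.9%).

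Fewer of the members than of all genes had a region at their own start. A region at the own start was present in 33 members (35.5%), in 7907 of all genes (56.7%) and in 14 receptor genes (7.82%). Among members of up to 1000 bp 6 of 40 had one (15.0%, against 27.2% of all genes of that length). Above that and up to 2000 bp 14 of 34 did (41.2%, against 48.1%), and among longer ones 13 of 19 (68.4%, against 71.8%). For a start region in any library, the gap was thus smaller in genes above 1000 bp. In all 14 libraries a region at the own start was present in 12 members (12.9%), 5236 of all genes (37.5%) and 5 receptor genes (2.79%). By length these members were 2 of 40 (all genes 321 of 2678), 4 of 34 (11.8%, against 25.9%) and 6 of 19 (31.6%, against 52.8%). Members with a region that missed their own start numbered 30 (32.3%), against 19.8% of all genes. No test was made of these shares, since the members share clusters and sequence.

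**Figure D1:**
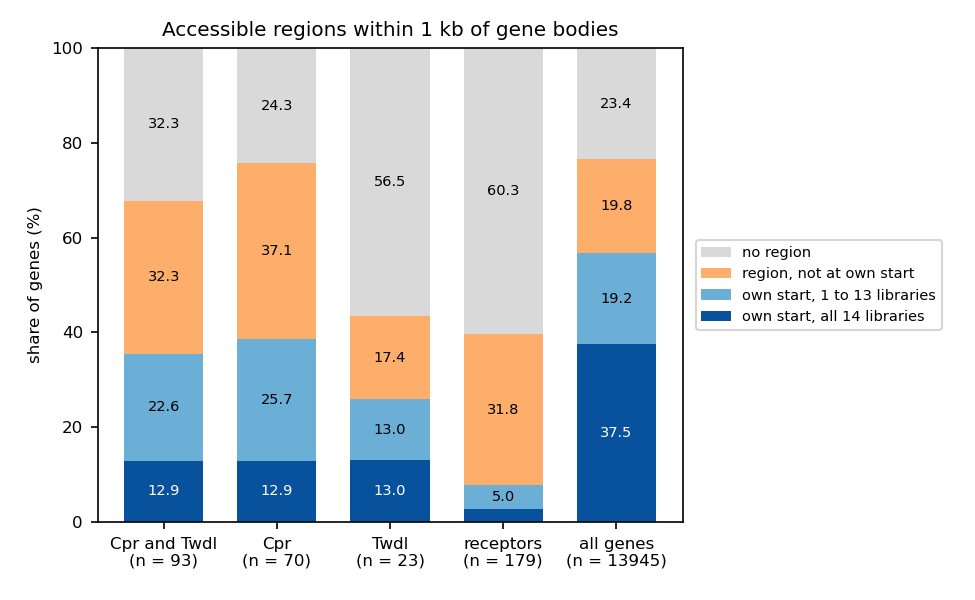
Share of genes (percent, vertical axis) by the kind of accessible region within 1 kb of the gene body, for all 93 members, the Cpr and Twdl families apart, 179 receptor genes and all 13945 protein-coding genes. The dark blue share, genes with a region within 200 bp of their own start in all 14 libraries, is 12.9% in members and 37.5% in all genes. The grey share, genes with no region, is 56.5% in the Twdl family.

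Members whose bodies lay within 20 kb of each other formed 15 clusters with 67 genes, 22 of them with no region, and 26 members stood alone, 8 of them with none, so the share with none was close in both. The largest cluster, 12 Twdl genes on chr3R:26619118-26641054, had no region at 7 of its genes (TwdlP, TwdlB, TwdlL, TwdlH, TwdlR, TwdlS and TwdlD). TwdlD, dominant alleles of which shorten the body, was among these 7. The other 5 genes of the cluster shared 3 regions, which were in 6, 1 and 1 libraries. TwdlX, TwdlY and TwdlZ, side by side on the X chromosome, all had none, as did Cpr5C, Cpr11A and Cpr11B, which left Cpr12A as the 1 of 7 X-linked members with a region.

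The clusters of Cpr genes differed among themselves. The 7 genes at Cpr65A (chr3L:6131242-6161589), which interleave with Lcp65A larval cuticle genes, had no region at any member's own start, and Cpr65Ay and Cpr65Az had none at all. The 7 genes at Cpr47E on arm 2R likewise had no region at any member's own start, and Cpr47Eb and Cpr47Eg had none at all. At Cpr49A on the same arm, 3 of 8 genes (Cpr49Ad, Cpr49Af and Cpr49Ag) had none and 2 had a region at their own start. At Cpr62B (chr3L:1824129-1842084) all 3 genes had a region at their own start, and Cpr62Ba alone had 6 regions. The remaining genes with none were Cpr30B, Cpr30F, Cpr64Ab, Cpr65Eb, Cpr67B, Cpr72Ec, Cpr78Ca, TwdlG, TwdlW and TwdlQ.

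**Figure D2:**
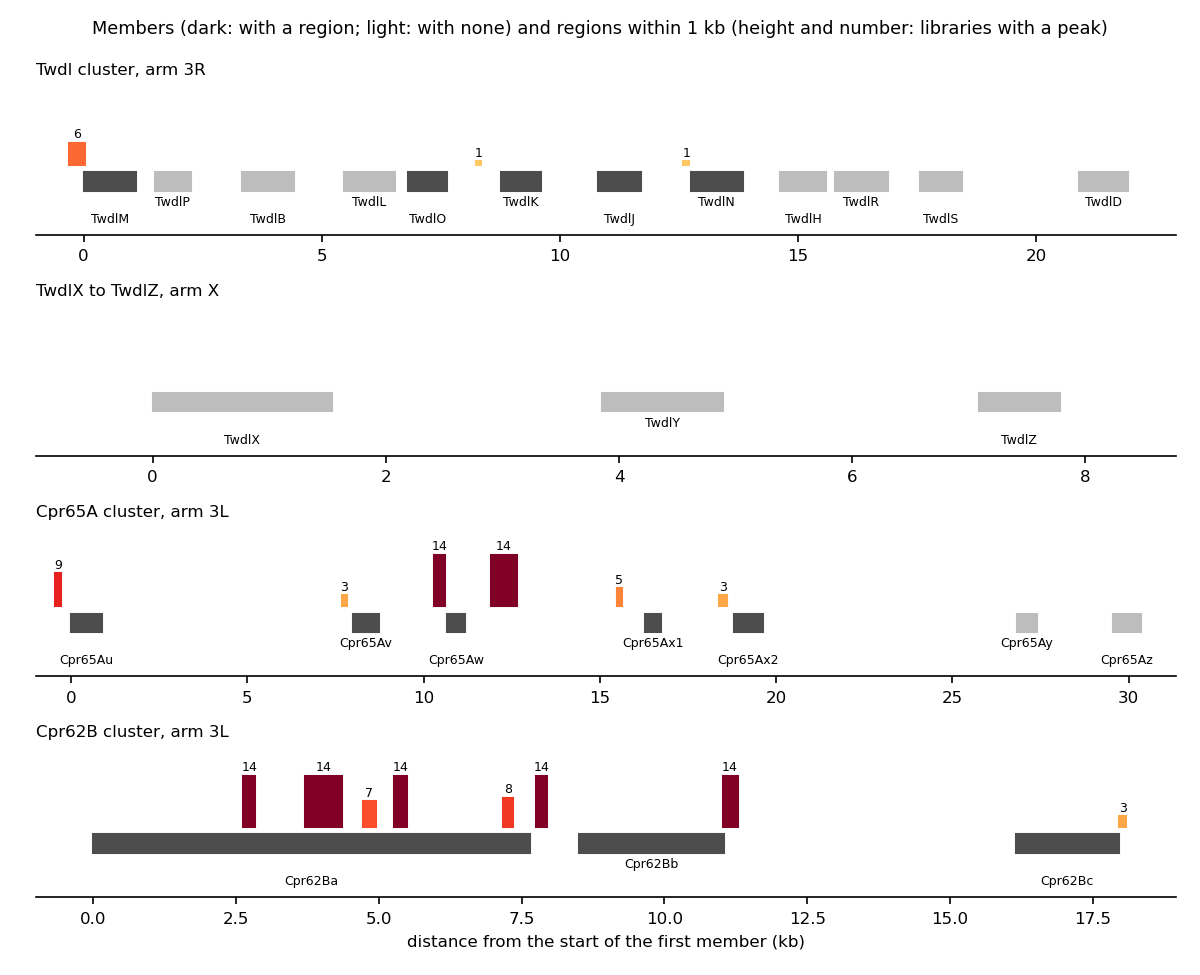
Maps of 4 clusters by distance from the start of the first member in kb, with members as boxes (dark with a region, light with none) and member regions above them, whose height and number give the libraries with a peak out of 14. The regions in the Twdl cluster were in 6, 1 and 1 libraries and TwdlX to TwdlZ had none, whereas 5 regions at Cpr62B were in all 14.

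Repeated sequence, where short fragments cannot be placed uniquely, was counted in gene bodies only and not in the 1 kb beside them. In 11 members at least 10% of the 31-base words of the gene body recur elsewhere in the genome. In the largest Twdl cluster these were TwdlM (19.5%), TwdlB (32.5%), TwdlL (41.6%), TwdlK (30.0%), TwdlJ (27.0%) and TwdlN (15.6%). TwdlB and TwdlL were the 2 of the 11 with no region. The highest of all 11 were Cpr65Ax1 and Cpr65Ax2, with every word of their bodies repeated, so that fragments cannot be assigned to either copy from its body alone. Of the 30 members with no region, 27 had under 1% of such words. Mononucleosome peaks, from fragments that span a nucleosome, were also absent from most of the 30. Such a region lay at 7 of them: Cpr47Eg, Cpr78Ca, TwdlG and, in the largest Twdl cluster, TwdlP, TwdlH, TwdlR and TwdlS. Of all members 39 (41.9%) had none, against 24.1% of all genes. By family 28 of 70 Cpr genes and 11 of 23 Twdl genes (47.8%) had none. The families thus lay closer together than in nucleosome-free peaks, where the shares were 24.3 and 56.5%. Of the 70 mononucleosome regions at members 18 were in all 14 libraries (25.7%, background 38.0%).

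At the other end, 12 members had a region at their own start, that is within 200 bp of it, in every library. Of the 13 regions concerned 5 lay over the start. Heights are given as the percentile of the authors' fold within the library's own list, since folds of different lists are not on 1 scale. The region of Cpr92F (chr3R:20669118-20669551, 20 bp upstream of its start) ran from the 91.2nd to the 98.5th percentile over the 14 libraries, with a median of 96.4. Cpr51A, with 2 such regions at medians of 88.9 and 52.5, came next by its higher region, and then TwdlE (median 83.9, 77.4 to 90.9), TwdlT (81.1, 45.9 to 86.8) and Cpr100A (81.1, 63.9 to 88.5). Cpr31A (62.8), Cpr62Bb (57.8), Cpr72Eb (56.1), Cpr49Ac (55.4) and Cpr64Ac (50.7) lay near the middle of the lists. TwdlV (33.1) and Cpr62Ba (15.1, 1.00 to 42.5) lay low, so regions at starts in all libraries spanned low to high ranks.

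Of the 5 member regions with the highest medians, 1 lay at the start of another gene. The region with a median at the 96.0th percentile inside the body of Cpr73D (chr3L:16955315-16955543) covers the start of Ogdh, a subunit gene of the oxoglutarate dehydrogenase complex. Of all 109 regions, 37 lay within 200 bp of a member's start and 15 within 200 bp of the start of another gene only, and for 24 the nearest start was not a member's. Of the other 4 regions with the highest medians, 3 were away from starts: the Cpr47Ea intron region (median 94.2, 75.3 to 99.3), the region downstream of Cpr66D (92.5, 83.1 to 96.7) and the region downstream of Cpr65Aw printed above (91.5, 70.5 to 95.1) lay 972, 3298 and 557 bp from the nearest member's start. Cpr62Ba, Cpr66D and Cpr73D had the most regions, 6 each, followed by Cpr31A, Cpr67Fa1 and Cpr67Fa2 with 4 each.

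Of the 109 regions 59 had their strongest summit between genes, 25 in an intron, 11 in a coding exon, 10 in a 5′ UTR, 2 in a 3′ UTR and 2 in a non-coding exon, and 0 overlapped an annotated transposable element. Relative to the nearest member's start, 40 lay upstream, 21 over it and 48 downstream. In all 14 libraries were 36 of the 109 (33.0%), against a background of 40.8% of all regions, and in 1 library 11 (10.1%), against 15.0%. Their median width was 219 bp, against 188 bp over all regions. The 36 constant regions had a median percentile of 64.9, and all constant regions of the series 68.3.

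**Figure D3:**
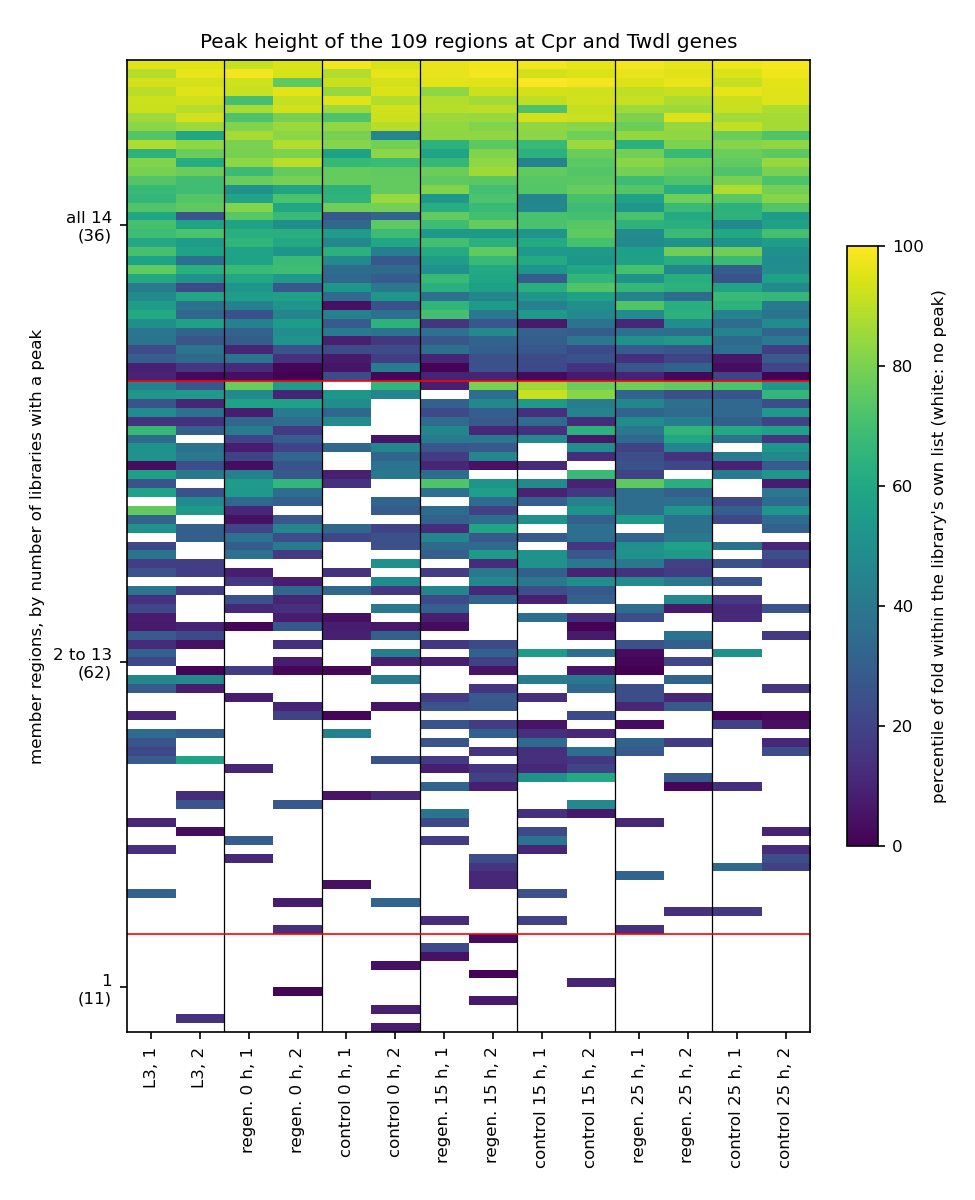
Percentile of the authors' fold within each library's list (colour, white where the library has no peak) for the 109 member regions in rows, ordered by the number of libraries with a peak, and the 14 libraries in columns by group and replicate. The 36 regions above the upper red line are in every library, the 11 below the lower line in 1, and the middle 62 show scattered gaps in all groups.

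At 0 h the regenerating libraries held 66 and 70 member regions and the controls 55 and 64. At 15 h the numbers were 75 and 80 in regenerating and 72 and 76 in control libraries, and at 25 h 73 and 70 in regenerating and 61 and 67 in control libraries. The L3 libraries held 75 and 66. The lowest count belonged to the shallowest library, 0 h control replicate 1, and both counts of regenerating discs exceeded both of control discs at 0 and 25 h but not at 15 h. All regions were in the same order at 0 h, with 21185 and 23305 in regenerating against 18247 and 20821 in control libraries. At 25 h they numbered 22359 and 22437 against 19667 and 20702. The share of each library's own regions that lay at members depends less on list length. It was 0.300 to 0.312% in the 4 libraries of 0 h, 0.333 to 0.360% in those of 15 h and 0.310 to 0.326% in those of 25 h, damaged and undamaged together, and 0.325 and 0.313% in L3. The 15 h libraries thus stood above all 10 others, in both treatments. Within each time the shares of regenerating and control libraries overlapped, at 0 h 0.312 and 0.300% against 0.301 and 0.307%. In mononucleosome peaks the share was 0.325 to 0.365% at 15 h, but 0.256 to 0.339% at 25 h, so the times overlapped.

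**Figure D4:**
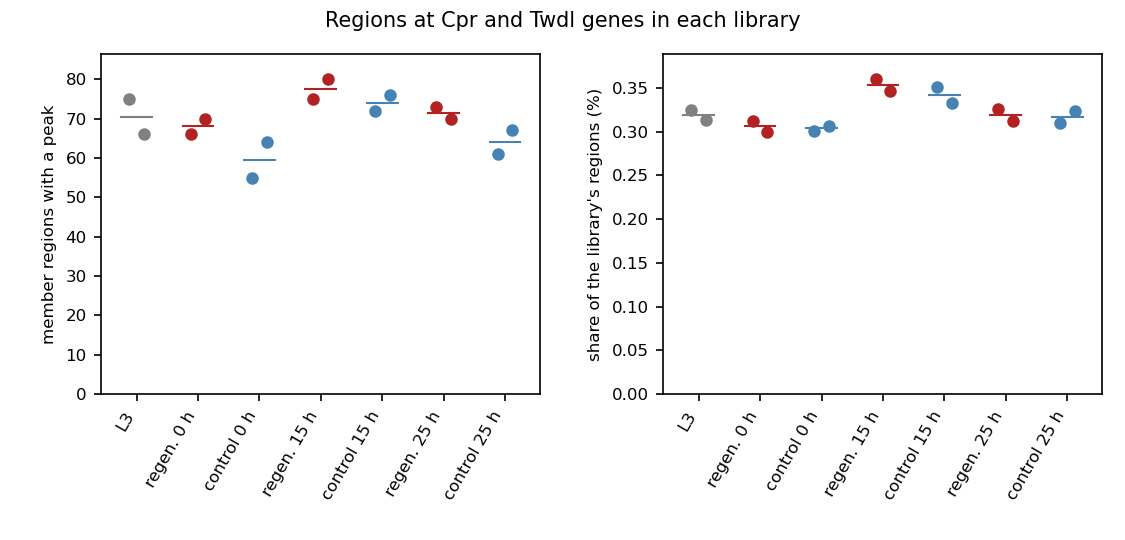
Number of member regions with a peak (left) and their share of the library's own regions in percent (right) in each of the 14 libraries, with dots for libraries and lines for the mean of the 2 in a group. The shares at 15 h, 0.333 to 0.360%, are above those of all other libraries, and the lowest number, 55, is 0 h control replicate 1.

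Changes with damage were then counted as gained (both regenerating libraries of a time and neither control) or lost (the reverse). At 0 h 5 of the 70 member regions in at least 2 of the 4 libraries were gained (7.14%, background 5.41%) and 2 were lost (2.86%, background 0.834%). Gained were regions at the starts of Cpr31A, Cpr66Cb and Cpr78E, a region 1450 bp downstream of the start of Cpr47Ec, and an intron region of Cpr50Ca. The Cpr31A region (chr2L:10054168-10054354, 5′ UTR) stood at the 54.0th and 36.2nd percentile in regenerating discs, with 27 and 25 fragments at its summit, against no peak in either control. A separate region 133 bp upstream of the same start (chr2L:10053810-10054080) was in all 14 libraries, at 54.8 and 68.5 in the 0 h controls. The Cpr31A start was thus not without open chromatin in those controls. Cpr78E stood at 40.9 and 16.9, Cpr47Ec at 37.5 and 16.9, Cpr66Cb at 25.2 and 10.3 and Cpr50Ca at 4.50 and 27.0 in regenerating discs, all against no peak in the 0 h controls. All 5 were present in both controls of 15 h, so they were missing from undamaged discs at 0 h and not throughout.

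The 2 regions lost at 0 h were low. The region at the start of Cpr49Ah had no peak in regenerating discs, against percentiles of 5.27 and 11.2 in controls, and that of Cpr67Fa1 (chr3L:10889831-10890026) had none in regenerating discs, against 8.92 and 31.1 in controls. With lists cut to equal length 1 gained region, that of Cpr31A, and 2 lost regions were counted at 0 h, Cpr67Fa1 still among the lost. The Cpr50Ca gain also failed a depth check added after the data were seen, in which a peak scaled to the depth of the libraries without it must still reach their lowest listed significance.

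At 15 h 4 of 82 member regions were gained (4.88%, background 3.19%) and 1 was lost (1.22%, background 2.54%). The gained ones lay 248 bp upstream of the start of Cpr64Aa, over a start of Cpr78Cb, 1752 bp downstream of the start of Cpr100A and in a coding exon of Cpr12A. In regenerating discs they stood at 25.4 and 27.3 (Cpr64Aa), 8.51 and 19.6 (Cpr78Cb), 16.1 and 22.6 (Cpr100A) and 32.7 and 8.55 (Cpr12A), with no peak in the controls of that time. The lost region, downstream of Cpr23B and 414 bp from the start of CG2975, had no peak in regenerating discs, against 42.4 and 40.2 in controls. It was also in both L3 libraries, at 45.8 and 47.0.

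At 25 h 6 of 76 were gained (7.89%, background 5.27%) and 2 lost (2.63%, background 1.33%). The regions of Cpr64Aa, Cpr78Cb and Cpr100A were gained again, so 3 of the 12 regions gained at any time were gained at 2 times and 0 at all 3. The share of repeated gains over all regions was not counted here, so nothing is drawn from this number. The others gained at 25 h were a second intron region of Cpr50Ca, the region over a start of Cpr76Bc, and a region 197 bp upstream of TwdlC. The Cpr76Bc region also lies within 1 kb of Cpr76Bb. TwdlC (chr3R:26994182-26994635) stood at the 31.9th and 39.9th percentile in regenerating discs, with 18 and 24 fragments at the summit, against no peak in the 25 h controls. It had peaks in both libraries of every other time-course group, so the gain at 25 h marks its absence from the 25 h controls. The lost regions were at the start of Cpr66D, at 0.970 and 1.96 in controls, and in an intron shared by Cpr73D and Ogdh, at 34.1 and 19.5 in controls, both with no peak in the 25 h regenerating discs. The Cpr78Cb gain at 25 h failed the depth check. With equal lists 7 of the 20 gains and losses of the 3 times held, those of Cpr31A, Cpr67Fa1, Cpr12A, Cpr23B and TwdlC and both gains of Cpr100A.

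The sequence around the strongest summit is shown for the Cpr64Aa and Cpr100A regions, gained at both 15 and 25 h, and for TwdlC, on the plus strand and in lower case throughout since no searched motif was found. None of these 3 windows held TGAGTCA or its reverse complement TGACTCA, the AP-1 motif of the JNK response to damage. Within 60 bases of the strongest summit it was in 0 of the 109 member regions and in 1.62% of all regions. Longer regions were searched only in that window. In the window from -250 to 50 around the start, 2 of the 93 members (2.15%) and 2.49% of all genes held it. Nothing can be drawn from the absence about the factor.
Cpr64Aa, upstream, chr3L:4209440-4209560: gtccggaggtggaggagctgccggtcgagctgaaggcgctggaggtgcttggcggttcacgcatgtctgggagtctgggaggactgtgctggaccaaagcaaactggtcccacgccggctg
Cpr100A, downstream, chr3R:30869337-30869457: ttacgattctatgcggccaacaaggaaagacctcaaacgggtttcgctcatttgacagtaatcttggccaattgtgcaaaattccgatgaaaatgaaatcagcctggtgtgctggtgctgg
TwdlC, upstream, chr3R:26994423-26994543: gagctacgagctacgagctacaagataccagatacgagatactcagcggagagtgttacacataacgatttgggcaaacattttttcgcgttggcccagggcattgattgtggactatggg

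**Figure D5:**
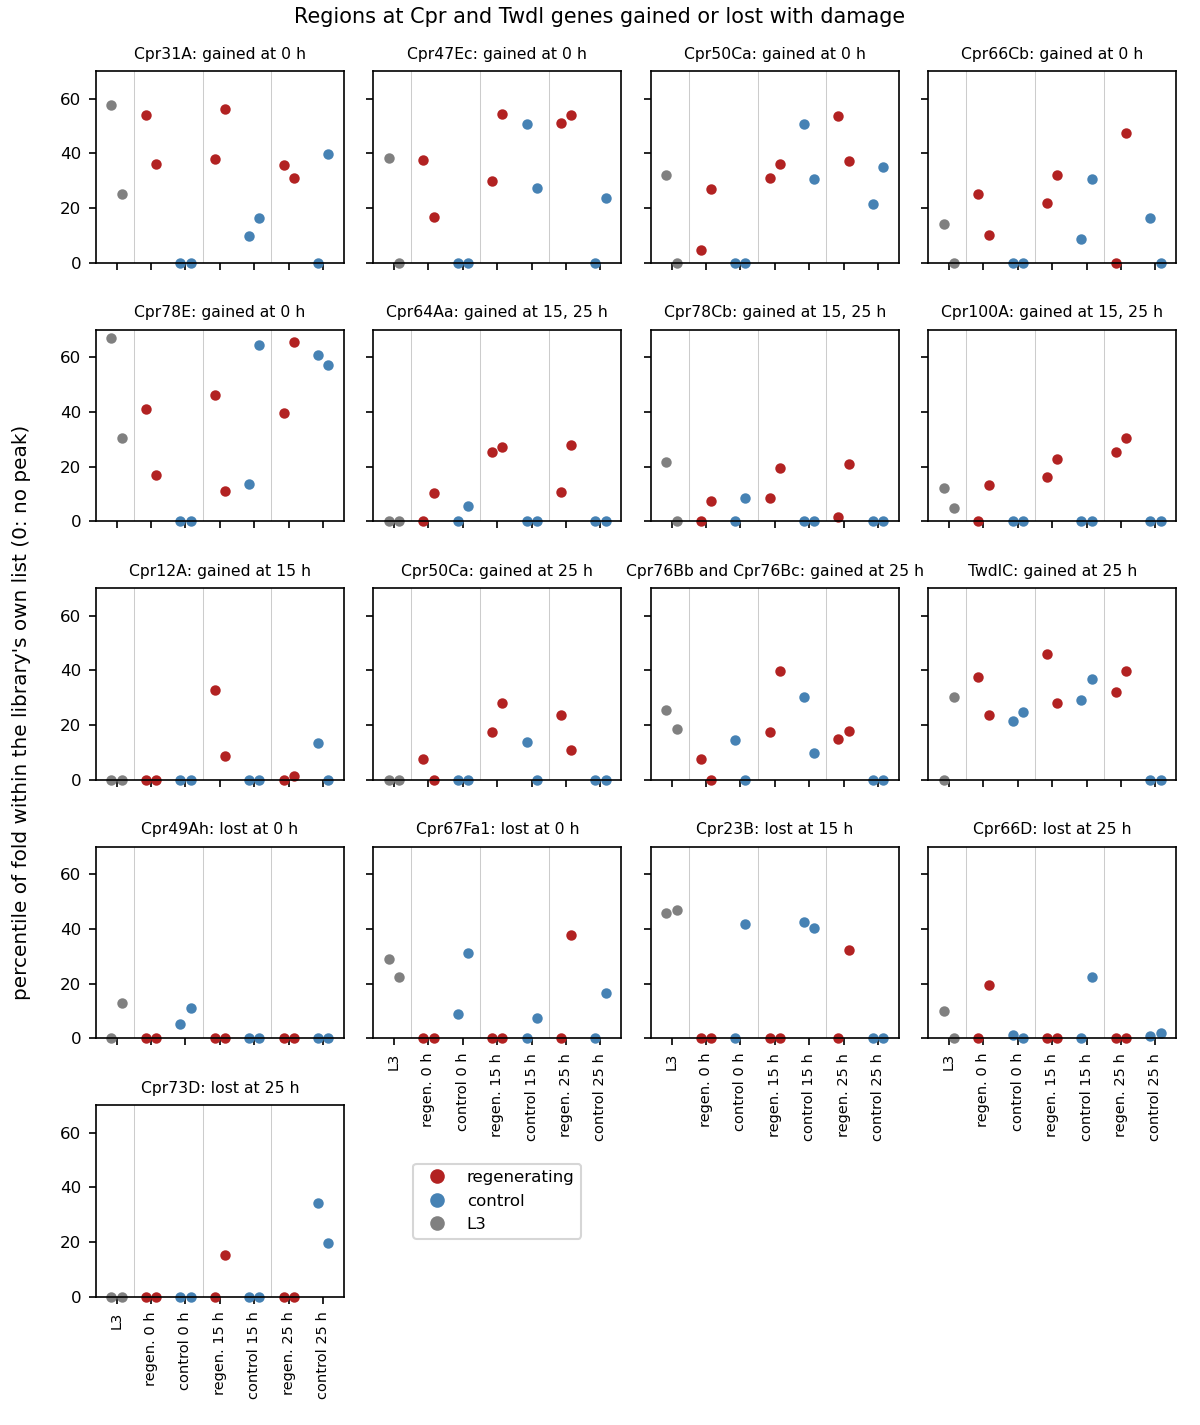
Percentile of the authors' fold within the library's list (vertical axis, 0 for no peak) of the 17 member regions gained or lost with damage, in both libraries of each group, regenerating in red, control in blue and L3 in grey. The Cpr64Aa region has a peak in 5 of 6 regenerating and 1 of 6 control libraries, the Cpr100A region in 5 and 0, while those gained at 0 h are present in the 15 h controls.

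Heights over the 3 times together were tested for each region by an exact permutation of the labels within each time (all orders, two-sided, smallest possible p 0.00926, Benjamini-Hochberg adjustment over all 32463 regions tested). At an adjusted p under 0.05 the test called 0 regions, members or others, and the smallest adjusted p was 0.348. An adjusted p under 0.05 would need a large share of all regions at the smallest possible p. The 0 calls thus do not show that single regions were unchanged. At an unadjusted p under 0.05 were 11 of the 108 member regions tested (10.2%, background 8.0%), and 9 of them were higher in regenerating discs (background of higher regions 6.41%). Of the member regions 60 were higher in regenerating discs (55.6%, against 64.2% of all regions), and their median difference was 0.97 percentile points, against 1.47 over all regions. The members' share of low p-values was thus close to that of the rest of the genome.

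The lowest unadjusted p, 0.00926, belonged to 3 member regions, each with an adjusted p of 0.348. The TwdlT start region stood between 82.6 and 86.8 in the 6 regenerating libraries (47 to 57 fragments at the summit) and between 45.9 and 82.8 in the 6 controls (22 to 46 fragments). The region upstream of Cpr47Ed had a peak in 6 of 6 regenerating libraries (29.6 to 57.8) and in 4 of 6 controls (up to 37.8). Another, within 1 kb of the end of Cpr50Cb, is the start of stj, a calcium channel subunit gene, with 51.8 to 75.3 in regenerating discs and 47.2 or less in controls. In the other direction, a region downstream of Cpr97Ea lay lower in regenerating discs (difference -35.9 points, exact permutation p = 0.0463, adjusted p = 0.579): at 15 h it had no peak in regenerating replicate 1 and stood at 36.1 in replicate 2, against 92.1 and 82.2 in controls.

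In control discs, from 0 to 25 h, 4 of 66 member regions opened (6.06%, background 3.37%), those of Cpr50Ca, Cpr66D, Cpr73D and Cpr78E, and 4 closed (6.06%, background 2.23%), those of Cpr49Ah, Cpr62Ba, Cpr65Au and TwdlC. Between 0 and 15 h 9 of 75 opened (12%, background 4.52%) and 1 closed (1.33%, background 1.06%), and between 15 and 25 h 2 of 79 opened (2.53%, background 1.12%), at Cpr73D and Cpr78Cb, and 9 closed (11.4%, background 4.17%). The 9 that opened by 15 h lay at Cpr31A, Cpr47Ec, Cpr47Ee, Cpr50Ca, Cpr62Bc, Cpr65Ax1, Cpr66Cb and Cpr78E, which had 2. Those of Cpr47Ee, Cpr62Bc and Cpr65Ax1 closed again by 25 h, with those of Cpr23B, Cpr65Au, Cpr67Fa1, Cpr76Bb and Cpr76Bc, TwdlM and TwdlC. The Cpr47Ee region, 998 bp upstream of its start, is an example: it stood at 50.8 and 61.3 at 15 h, with no peak in any of the 4 controls of 0 and 25 h. The openings of Cpr62Bc by 15 h and of Cpr66D by 25 h failed the depth check. The 0 h controls held the shallowest library (1.62 and 2.83 fragments, against 2.27 and 3.45 at 15 h), and with lists cut to equal length 2 regions opened by 15 h and 3 closed by 25 h.

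In regenerating discs fewer member regions were called. From 0 to 25 h 2 of 70 member regions opened (2.86%, background 2.21%), at Cpr76Bd and between Cpr67Fa2 and Cpr67Fb, and 1 closed (1.43%, background 2.37%), in an intron of Cpr62Ba that also closed in controls. From 0 to 15 h 2 of 73 opened (2.74%, background 2.67%), at Cpr66D and Cpr12A, and 0 closed (background 3.03%). From 15 to 25 h 0 of 78 opened (background 2.34%) and 2 closed (2.56%, background 2.07%), those of Cpr65Au and Cpr65Ax1, which closed in controls over the same step and lie at the starts of the larval cuticle genes Lcp65Ag3 and Lcp65Ab2. Whether the time course of the members differs between regenerating and control discs was not tested. With equal lists 5 regions opened by 15 h in regenerating discs, more than the 2 in controls.

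L3 discs differed from the time-course controls at 1 member region. Of 86 regions in at least 2 of these 8 libraries, that downstream of Cpr100A was in both L3 libraries (12.3 and 4.67) and in 0 of 6 controls (1.16%, background 0.667%), and 0 regions were in all controls and neither L3 library (background 0.0559%). It is the region gained with damage at 15 and 25 h, and it was also in regenerating replicate 2 of 0 h, at 13.4. The L3 call failed the depth check and was lost with equal lists.

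Other genes of cuticle formation were counted in the same way, with no test against the members and gene length not matched. Of all genes 23.4% lacked a region, 56.7% had one at their own start and 37.5% had one there in all libraries. Of all genes over 2000 bp 11.9% lacked a region and 52.8% had one at their own start in all libraries. Of 21 matched genes of chitin synthesis and assembly, such as the chitin synthase kkv, 0 lacked a region. In this list 18 had a region at their own start in all 14 libraries. Of 18 listed regulators of cuticle genes, such as the ecdysone receptor EcR and grh, 0 lacked a region and 17 had one at their start throughout. Of 13 tanning genes 4 lacked a region and 6 had one at their start throughout. Among 36 matched cuticle protein genes of other names, such as Lcp and Ccp, 5 lacked a region, 18 had a region at their own start and 6 in all libraries. Regions at the own start were gained at 25 h in Ddc, the dopa decarboxylase of cuticle tanning (chr2L:19119968-19120120), and in Lcp3, a larval cuticle gene. The Ddc start also had a region in all 14 libraries, so the gained one, in 5 libraries, was a further region there. The tanning genes had 25 regions and the other cuticle protein genes 47, and the background of gains at 25 h was 5.27%.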

How the data were processed

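Members and gene lists were chosen with earlier results of these data known. Per the labels' protocols, 10 wing discs per condition were transposed for 30 min and amplified over 13 PCR cycles. STAR 2.4.0j, MACS2 and dm6 stand in the submitters' processing notes, and neither the peak threshold nor the fragment limits are stated in these sources. The deposited peak lists, 1 nucleosome-free and 1 mononucleosome list per library, give the authors' fold enrichment (a ratio), −log10 p, −log10 q and a score for each peak, as the authors' caller wrote them, with no read counts, so depth was solved from fold and p (99.981% of peaks, tolerance 0.001 on log10 p). Touching or overlapping nucleosome-free peaks were merged and set against Ensembl release 115 genes (BDGP 6.54), whose starts and ends were the same in RefSeq for all 93 members. Presence was called in all libraries of one side and none of the other. The exact permutation test was checked on simulated data. Intervals cover counting error only, and p-values cover the spread between libraries, which may be technical.

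The text names members with a region at their own start in all 14 libraries and every member region called in a comparison. It also names the members with most regions (6, since 3 tied for the last places), the 5 regions of highest median, and genes with none by cluster. The permutation regions, the Cpr49A to Cpr62B cluster accounts and the printed sequences were chosen after their values were seen. Length classes, the TATAAA window of 40 to 20 bases, the steps through 15 h, the depth check and the crossed block were added after the data were seen. A check for pairing of regenerating and control libraries by replicate number gave correlations of −0.112, 0.039 and 0.002 at 0, 15 and 25 h. The numbers were therefore not taken as pairs. Computation used Python 3.11.15 with scipy 1.17.1, numpy 2.4.6, pandas 2.3.3 and, for plots, matplotlib 3.10.9.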

Additional observations from a re-analysis of the deposited data

How the results depend on the processing

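Counts of gained, lost, opened and closed member regions are small and moved with most choices, and the cause was not tested. The balance of gains and losses also turned: at 0 h 1 was gained and 2 were lost with equal lists and 0 and 1 in mononucleosome peaks, against 5 and 2. In regenerating discs after 15 h 4 opened and 3 closed where a peak had to cover 50% of its region, against 0 and 2. Without regenerating replicate 2 of 15 h 8 were gained and 9 lost at 15 h, and without regenerating replicate 1 of 0 h 5 opened and 6 closed in regenerating discs from 0 to 25 h. Of the 20 gains and losses with damage, 10 held among peaks with −log10 q of at least 5, 7 with equal list lengths, 12 where a peak had to cover 50% of its region, 18 under the depth check and 0 in mononucleosome peaks. The exact permutation test gave 0 adjusted calls under every alternative run, and between 1 and 20 member regions at an unadjusted p under 0.05. With the replicate block (64 orders, smallest p 0.0312) it gave 0 adjusted calls and 4 member regions at an unadjusted p under 0.05, and with crossed numbers at 0 h 0 and 5. With so few orders, an adjusted call needs a large share of all regions at the smallest possible p. The 0 adjusted calls under the alternatives are therefore no sign of a stable result. The shares above depend on the extension. With none 66.7% of members and 39.4% of all genes lacked a region, and 14 member regions were in all libraries. With 5 kb 7.53% of members and 7.78% of all genes lacked one, and 76 member regions were in all libraries. The members' share thus stood above that of all genes with none and with 1 kb, but not with 5 kb. In mononucleosome peaks 18 member regions were in all libraries.

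With −log10 q of at least 5, losses numbered 0, 2 and 1 at 0, 15 and 25 h. In controls 2 regions closed from 0 to 25 h, 4 opened by 15 h and 4 closed from 15 to 25 h. In regenerating discs 4 opened and 0 closed from 0 to 25 h, 6 opened by 15 h and 1 opened from 15 to 25 h, and 0 were present in L3 alone. With equal lists 1 was gained at 0 h, 3 were lost at 15 h and 3 gained at 25 h. In controls 2 opened and 1 closed from 0 to 25 h, 2 opened by 15 h, and 1 opened and 3 closed from 15 to 25 h. In regenerating discs 5 opened and 0 closed from 0 to 25 h and 5 opened by 15 h, with 0 in L3 alone. In mononucleosome peaks 0 were gained and 1 lost at 0 h, 2 lost at 15 h, and 1 gained and 1 lost at 25 h. In controls 2 closed from 0 to 25 h, 4 opened and 4 closed by 15 h and 5 closed after it. In regenerating discs 4 opened from 0 to 25 h, 8 opened and 1 closed by 15 h, and 1 opened and 5 closed after it.

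With no extension 3, 2 and 3 were gained at the 3 times and 0 lost at 15 h. In controls 2 closed from 0 to 25 h, 4 opened by 15 h, and 1 opened and 3 closed after it. In regenerating discs 1 opened from 0 to 25 h and 0 closed after 15 h, with 0 in L3 alone. With 5 kb 11, 9 and 10 were gained and 4 lost at 25 h. In controls 9 opened from 0 to 25 h, 15 opened and 3 closed by 15 h and 4 opened after it. In regenerating discs 7 opened and 3 closed from 0 to 25 h, 5 opened by 15 h, and 1 opened and 7 closed after it, with 2 in L3 alone. With 50% of the region inside, 1 opened in controls after 15 h. With peaks covering 50% of the region, 7 were gained and 3 lost at 15 h and 4 lost at 25 h, 2 closed in controls by 15 h, and in regenerating discs 2 closed from 0 to 25 h, 2 closed by 15 h and 4 opened after it. Where the nearest start had to be a member's, 0 were lost at 15 h and 1 at 25 h, 0 opened in controls and 0 closed in regenerating discs after 15 h. Under the depth check 0 were present in L3 alone.

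Leaving out each library in turn loosens the criterion to 1 library on that side. Gains then ranged over 9 to 13, 7 to 11 and 7 to 11 at 0, 15 and 25 h, and losses over 2 to 9, 4 to 9 and 2 to 5. In controls 7 to 13 opened and 4 to 12 closed from 0 to 25 h, 12 to 17 opened and 1 to 8 closed by 15 h, and 3 to 7 opened and 13 to 13 closed after it. In regenerating discs 5 to 8 opened and 3 to 6 closed from 0 to 25 h, 6 to 14 opened and 0 to 5 closed by 15 h, and 1 to 4 opened and 3 to 9 closed after it. L3 alone held 1 to 2, and 0 were absent from it. The permutation test gave 0 adjusted calls, with 8 to 14 at an unadjusted p under 0.05. Its smallest possible p was then 0.0185, which makes an adjusted call still harder to reach.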
